A study of Mus musculus with 4 samples.

Results

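The genes described here are 10 genes of vascular tone, taken by name from the GENCODE annotation of mm10 (GRCm38) out of 21755 protein-coding genes. Of these, 6 encode what a vessel wall sends (Nos3, Edn1, Ece1, Ace, Ptgs1 and Ptgis) and 4 encode receptors (Ednra, Ednrb, Ptgir and Agtr1a). The question was whether the chromatin of the senders is open in the endothelial nuclei of the heart and that of the receptors in the other nuclei. The data were ATAC-Seq, in which Tn5 transposase cuts accessible DNA, of nuclei sorted by flow cytometry from whole hearts of male NuTRAP/Cdh5-Cre mice on a C57BL/6 background, aged 8 to 12 weeks. GFP+ nuclei are of endothelial descent, because Cdh5-Cre switches on the GFP tag, and GFP- nuclei are all others. Both populations carried the same alleles and came with 2 replicate libraries each, and 1 list of peaks per population, called from both replicates, was used.

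Vascular tone is set by signals that pass from the endothelium to the smooth muscle around it. Nitric oxide and prostacyclin relax the muscle, whereas endothelin-1 and angiotensin II constrict it. Endothelin-1 also acts on a receptor of endothelial cells, through which it releases nitric oxide and prostacyclin. In the heart, the receptors lie on smooth muscle and pericytes, which are GFP- here, and in part on cardiomyocytes, fibroblasts and the endothelium itself.

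The GFP- list held 78912 peaks over 52.1 Mb and the GFP+ list held 65008 over 41.8 Mb. The lists carry no read counts, so the depth of the libraries cannot be read from them, and no difference below has a replicate check or a p-value. Each peak has an area, the signal summed over its length by the caller, and peaks were ranked by area in each list separately, on a scale of 0 (lowest) to 100 (highest). A higher rank in 1 list is not a larger number of open copies of a site. In a sorted mixture, more cells with an open site and a more open site per cell cannot be told apart. Start peaks of 10 endothelial marker genes were found for 10 in the GFP+ and 6 in the GFP- list, and 9 of the 10 ranked higher in GFP+ (Tek, a receptor of angiopoietins, was the exception, at 81.1 in GFP- and 54.1 in GFP+). Start peaks of 9 mural cell markers were found for 9 in the GFP- and 4 in the GFP+ list, and those of 8 fibroblast markers for 7 and 2. Start peaks of 8 cardiomyocyte markers were found for 7 in both lists, with median ranks of 99.7 in GFP- and 94.3 in GFP+.

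The DNA of the sites on which the results turn is printed here, from GRCm38 and on the plus strand. First are the 160 bases before the start of Nos3, a sender whose start ranked far higher in GFP+ (chr5:24364650-24364809). With them are those before the start of Edn1, a sender whose start differed little between the lists (chr13:42301316-42301475). Capitals mark SOX words, CCATTGT on either strand, which 1.45% of the same 160 bases before all protein-coding starts held. Edn1 held none of the 7 words searched, which says only that these letters are not in this window.
Nos3 start: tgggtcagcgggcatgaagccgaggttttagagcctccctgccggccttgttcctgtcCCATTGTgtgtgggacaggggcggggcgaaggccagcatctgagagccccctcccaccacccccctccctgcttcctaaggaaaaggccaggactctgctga
Edn1 start: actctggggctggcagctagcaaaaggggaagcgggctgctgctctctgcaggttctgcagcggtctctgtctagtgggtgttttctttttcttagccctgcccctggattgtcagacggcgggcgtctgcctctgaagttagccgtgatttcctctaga

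Next is the summit of the peak that was found in the GFP+ list alone within Nos3, in an intron 0.856 kb after the start (chr5:24365586-24365745). It was chosen after its values were seen. Capitals mark the ETS word AGGAAGT on either strand, which 6.27% of the same windows around all GFP+ summits held.
Nos3 intron, GFP+ alone: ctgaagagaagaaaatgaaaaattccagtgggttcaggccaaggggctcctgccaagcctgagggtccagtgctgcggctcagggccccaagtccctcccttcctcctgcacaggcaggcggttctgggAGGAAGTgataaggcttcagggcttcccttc

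The following are summits of peaks found in the GFP- list alone. Each is the highest-ranked such peak of its gene, shown for the 5 genes at which it ranked at 50 or more and lay outside exons. Further such peaks of some of these genes, not printed, also ranked above 50. They lie in an intron of Ece1 (chr4:137942182-137942341), upstream of Ptgis (chr2:167249701-167249860), after the end of Ptgir (chr7:16912400-16912559), in an intron of Ednra (chr8:77711832-77711991) and after the end of Agtr1a (chr13:30418724-30418883). Capitals mark the AP-1 word TGANTCA, the ETS word AGGAAGT or the E-box CAGCTG. The same windows around all GFP- summits held them in 8.62%, 5.77% and 19.3%, respectively. The 160 bases at Ptgir, Ednra and Agtr1a held none of the 7 words, although a wider window of 200 bp around the Agtr1a summit held an AP-1 word.
Ece1 intron, GFP- alone: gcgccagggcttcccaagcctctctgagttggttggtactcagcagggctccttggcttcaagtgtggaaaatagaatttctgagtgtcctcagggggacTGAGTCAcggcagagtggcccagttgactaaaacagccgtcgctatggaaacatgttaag
Ptgis upstream, GFP- alone: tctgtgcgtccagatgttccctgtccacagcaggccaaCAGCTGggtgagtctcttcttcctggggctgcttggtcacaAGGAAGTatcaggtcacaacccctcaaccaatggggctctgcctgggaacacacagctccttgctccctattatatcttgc
Ptgir downstream, GFP- alone: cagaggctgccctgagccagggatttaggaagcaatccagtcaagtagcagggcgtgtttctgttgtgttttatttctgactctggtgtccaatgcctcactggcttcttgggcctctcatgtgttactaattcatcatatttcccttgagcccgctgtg
Ednra intron, GFP- alone: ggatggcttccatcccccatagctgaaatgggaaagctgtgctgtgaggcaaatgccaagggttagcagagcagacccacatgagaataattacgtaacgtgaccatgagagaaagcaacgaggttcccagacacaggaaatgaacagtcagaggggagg
Agtr1a downstream, GFP- alone: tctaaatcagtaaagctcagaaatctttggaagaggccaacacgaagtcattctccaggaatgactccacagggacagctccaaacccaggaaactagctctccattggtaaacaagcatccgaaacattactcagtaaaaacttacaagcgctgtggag

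At their starts, the senders did not rank higher in endothelial nuclei as a group. Among the 6 senders, Nos3 ranked far higher in GFP+, Ace and Ptgis ranked far lower, and Edn1, Ece1 and Ptgs1 differed little. Among the 4 receptors, Ptgir ranked far lower in GFP+, and Ednra, Ednrb and Agtr1a were within 20 points. A start peak, one that overlaps any annotated transcript start +/- 250 bp, was found for 10 of the 10 genes in the GFP- list, against 61.8% of all protein-coding genes, and for 9 of the 10 in the GFP+ list, against 59.8%. A difference of more than 20 points in favour of GFP+ was found for 1 of the 10, against 1.94% of the 13643 genes with a start peak in either list. A difference of more than 20 points in favour of GFP- was found for 3 of the 10, against 7.33%. At any size of difference, 3 of the 10 ranked higher in GFP+, against 28.6%. A start peak in the GFP+ list only was found for 0 of the 10, against 1.46%. The median difference, GFP+ minus GFP-, was -4.66 points for the senders, -2.59 for the receptors and -0.814 for all genes with a start peak.

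**Figure D1:**
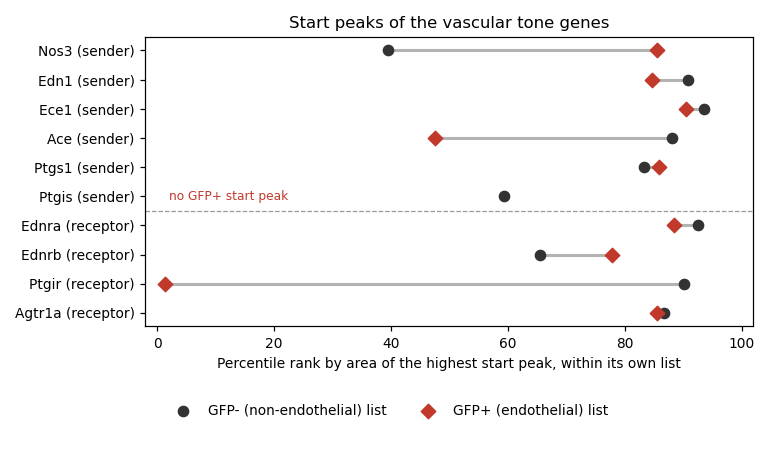
Rank of the highest start peak of each gene within its own list (horizontal axis, 0 to 100) in the GFP- list (circles) and the GFP+ list (diamonds), senders above and receptors under the dashed line. Nos3 lies to the right in GFP+ (85.5 against 39.4), Ace and Ptgir lie far to the left, and Ptgis has no GFP+ start peak.

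Nos3 encodes endothelial nitric oxide synthase (chr5:24364810-24384474, plus strand). Its start peak had an area of 563 and a length of 349 bp in the GFP- list, where it ranked at 39.4. In the GFP+ list it had an area of 2908 and a length of 1647 bp and ranked at 85.5. The difference of 46.1 points was exceeded by 0.586% of the genes with a start peak. Much of the difference was in length: by area per bp the start ranked 45.0 in GFP- and 53.3 in GFP+, so that the difference was 8.34 points. By the -log10 p of the summit, 4.45 in GFP- and 7.75 in GFP+, it was 49.4 points.

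Edn1 encodes the precursor of endothelin-1 (chr13:42301476-42307990, plus strand). Its start ranked at 90.9 in the GFP- list, with an area of 4353 over 2436 bp. In the GFP+ list it ranked at 84.6, with an area of 2759 over 1546 bp. Its summit lay 82 bp before the start in both lists. Among all genes with a start peak in either list, the median start rank was 90.3 in GFP- and 88.6 in GFP+. The start of this endothelial ligand was thus near that median in GFP- and under it in GFP+. The stretch covered by the longer GFP- peak also held a separate GFP+ peak, 1.31 kb after the start, that ranked at 27.9.

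Ece1 encodes the enzyme that cleaves the precursor to active endothelin-1 (chr4:137862237-137965229, plus strand). Its first start ranked at 93.5 in GFP- and 90.4 in GFP+, the highest start of the 10 genes in each list. A group of internal starts about 51.2 kb further along ranked at 82.0 in GFP- and 80.3 in GFP+.

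Ace encodes angiotensin-converting enzyme, which makes angiotensin II and breaks down bradykinin (chr11:105967945-105989964, plus strand). In the GFP- list, 1 peak of 2650 bp and an area of 3610 covered its start and ranked at 88.1, with its summit in an exon 1.76 kb after the start. In the GFP+ list, the same stretch held a start peak of 964 bp and an area of 652, which ranked at 47.6, and a separate peak at 1.79 kb, which ranked at 39.5. The difference at the start was -40.5 points, and 3.43% of the genes with a start peak had a lower one. The stronger part of this site in GFP- was therefore inside the gene and not at its first base.

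Ptgs1 encodes cyclooxygenase-1, which makes the prostaglandin precursor of prostacyclin (chr2:36230426-36252272, plus strand). Its first start ranked at 59.5 in GFP- and 70.8 in GFP+. An internal start 5.82 kb further along ranked higher, at 83.4 in GFP- and 85.9 in GFP+. At that start the GFP- peak was narrower, at 686 bp against 1311 bp, and by area per bp the order was turned, with a difference of -23.4 points.

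Ptgis encodes prostacyclin synthase, which completes the path from cyclooxygenase to prostacyclin (chr2:167191805-167240604, minus strand). A start peak of 620 bp and an area of 985 ranked at 59.4 in the GFP- list. The GFP+ list held none there, so that the difference was -59.4 points with an absent peak taken as 0. A lower difference was found in 1.44% of the genes with a start peak. The peak was 1 of 4.71% of gene starts with a peak in the GFP- list only. With starts widened to +/- 1000 bp, a GFP+ intron peak that ranked at 40.2, 31.4 kb into the gene near an internal start, entered the count and the difference became -19.2 points.

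Among the receptors, Ednra encodes the ETA receptor, through which endothelin-1 constricts smooth muscle (chr8:77663031-77724464, minus strand). Its start ranked at 92.5 in GFP-, with an area of 4956, and at 88.5 in GFP+, with an area of 3503. In both lists this was the second-highest start of the 10 genes, after Ece1. By area per bp it ranked at 87.9 in GFP- and 67.4 in GFP+, a difference of -20.4 points.

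Ednrb encodes the ETB receptor, the receptor that endothelial cells carry (chr14:103814625-103844402, minus strand). Its start ranked at 65.5 in GFP-, with an area of 1207, and at 77.8 in GFP+, with an area of 1891. The difference of 12.2 points was under the limit of 20, and 2.98% of the genes with a start peak had a higher one. By area per bp the start ranked at 10.2 in GFP- and 45.0 in GFP+, a difference of 34.9 points. Nos3 and Ednrb thus had the widest differences in favour of GFP+, and which of them passed 20 points depended on the measure. By area, and by the summit's -log10 p (49.4 points for Nos3 and 13.9 for Ednrb), it was Nos3. By area per bp it was Ednrb.

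Ptgir encodes the prostacyclin receptor of smooth muscle and platelets (chr7:16906490-16910905, plus strand). A peak of 1295 bp and an area of 4125 covered its start in the GFP- list and ranked at 90.1. In the GFP+ list the same stretch held 2 low-ranked peaks. The start peak, of 184 bp and an area of 207, ranked at 1.37, and a peak just before it ranked at 3.87. The difference of -88.8 points was the widest of the 10 genes, and 0.0880% of the genes with a start peak had a lower one. By area per bp the difference was -61.2 points, and by the summit's -log10 p it was -73.2.

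Agtr1a encodes the main angiotensin II receptor of rodent vessels (chr13:30336441-30382867, plus strand). Its first start ranked at 80.7 in GFP- and 67.9 in GFP+, a difference of -12.8 points. An internal start 9.1 kb further along ranked at 86.7 in GFP- and 85.6 in GFP+. The first start was thus the one that differed more.

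The starts of the 10 genes also differed in CpG content, which the choice of genes did not use. The ratio of observed to expected CpG was taken within 250 bp of the first base of the gene record, whichever start gave the rank. It was 0.367 for Nos3, 0.189 for Ptgir, 0.412 for Ptgis and 0.835 for Ace, the genes with differences over 20 points. Among the genes within 20 points it was 0.704 for Edn1 and 0.804 for Ece1, and lower for Ptgs1 at 0.412, Ednra at 0.417, Ednrb at 0.513 and Agtr1a at 0.516. For Ptgs1 and Agtr1a an internal start gave the rank, but their first starts were also within 20 points, at 11.3 and -12.8. Low and high ratios were thus found on both sides of 20 points. Over all genes the median ratio was 0.372 for starts more than 20 points higher in GFP+, 0.499 for those more than 20 points lower and 0.781 for those within 20 points.

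Next, all peaks with a summit in the gene or within 50 kb of it were counted. The 10 loci held 160 GFP- and 128 GFP+ peaks. Of the GFP- peaks, 53 (33.1%, 95% Wilson interval 26.3 to 40.7) overlapped no GFP+ peak by at least 1 bp, against 28.2% over all protein-coding loci. Of the GFP+ peaks, 15 (11.7%, 7.23 to 18.4) overlapped no GFP- peak, against 12.7%. These intervals cover counting error only, and they include the shares of all loci. At the starts, 1 of 13 GFP- and 0 of 12 GFP+ peaks were unshared, against 8.26% and 3.23% at all protein-coding starts. In introns, 19 of 36 GFP- and 3 of 17 GFP+ peaks were unshared, against 34.6% and 16.4% in the introns of all protein-coding genes, and 9 of those 19 were in Ece1.

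**Figure D2:**
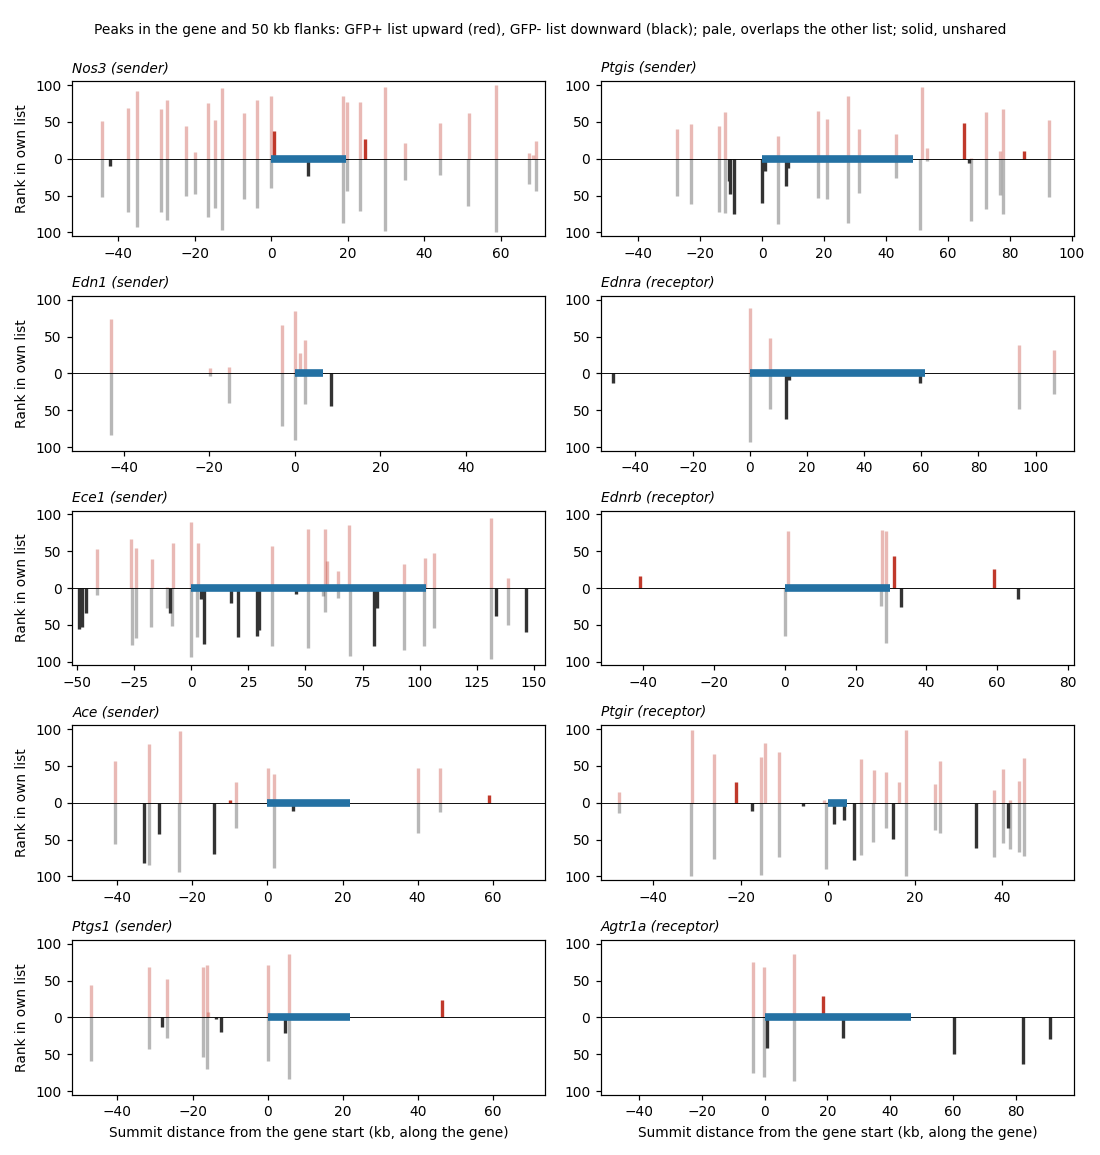
Peaks of each locus by the distance of the summit from the gene start (horizontal axis, kb along the gene) and by rank in the own list (vertical axis, GFP+ upward, GFP- downward), with the gene as a thick line and peaks without overlap in the other list in solid colour. Solid GFP- bars fill the body of Ece1, and Ednrb has solid GFP+ bars only after its end and far upstream.

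The loci differed widely from each other. Ece1 held 35 GFP- peaks, of which 15 were unshared, and 20 GFP+ peaks, of which 1 was unshared. Within its introns alone, 9 of 17 GFP- peaks were unshared. Nos3, by contrast, held 25 GFP- peaks with 2 unshared and 27 GFP+ peaks with 3 unshared. Of the Nos3 peaks, 8 in GFP- and 7 in GFP+ lay at the starts of other genes, since 6 other protein-coding genes start in its locus. Ednrb was the receptor with more GFP+ than GFP- peaks, 6 with 3 unshared against 5 with 2 unshared. Ednra held 8 GFP- peaks with 4 unshared and 4 GFP+ peaks with 0 unshared. Agtr1a held 8 GFP- peaks with 5 unshared and 4 GFP+ peaks with 1 unshared.

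**Figure D3:**
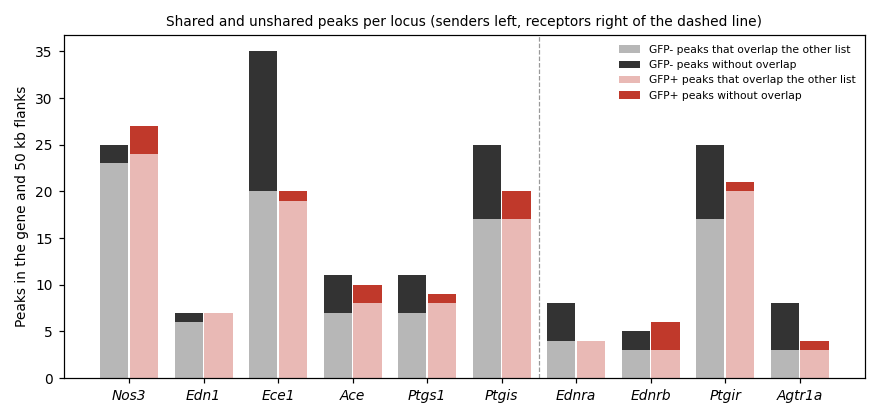
Number of peaks in each gene with its 50 kb flanks (vertical axis) in the GFP- list (grey and black) and the GFP+ list (pink and red), with the unshared peaks in the darker colour. Nos3 and Ednrb hold more GFP+ than GFP- peaks, Edn1 holds 7 of each, and Ece1 holds the most unshared GFP- peaks, 15.

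To compare sites by rank, overlapping peaks of the lists were joined into 174 regions, of which 106 were in both lists, 53 in GFP- only and 15 in GFP+ only. More than 20 points in favour of GFP+ were found for 18 regions (10.3%), against 7.35% over the loci of all protein-coding genes. More than 20 points in favour of GFP- were found for 55 regions (31.6%), against 22.4%. Of these 55, 18 were at Ece1 and 10 at Ptgir. The median difference was -7.57 points over the 10 loci and -3.52 over all loci. By locus it was lowest for Agtr1a at -28.0 and Ece1 at -20.2, and it was above 0 for Ednrb at 14.6 and Ptgs1 at 2.17. Of the 174 regions, 125 ranked lower in GFP+ by any amount, against 67.7% over all loci.

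**Figure D4:**
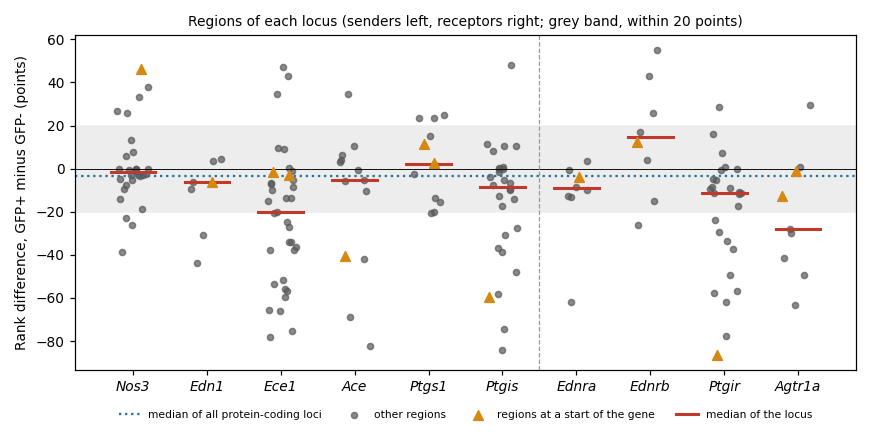
Difference in rank, GFP+ minus GFP- in points (vertical axis), of each region of the 10 loci, with starts as triangles, other regions as dots, locus medians as red lines and the median of all protein-coding loci (-3.52) dotted. The start triangle of Nos3 is the highest point of its locus, and Ednrb and Ptgs1 are the loci with a median above 0.

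Regions in favour of GFP+ were also found away from the starts, inside some genes and in their flanks. In Nos3, beside the start and the intron peak at 0.856 kb that ranked at 37.9 in GFP+ and was absent from GFP-, a region at the end of the gene ranked at 43.8 in GFP- and 77.3 in GFP+. Its summit lay in an exon of Atg9b, the gene that runs against the end of Nos3, so that it cannot be given to either. In Ednrb, a region 27.6 kb after the start, near the end of the gene, ranked at 23.8 in GFP- and 78.8 in GFP+, the highest difference of all 174 regions at 55.0 points. In Ece1, a region 58.3 kb after the start ranked at 32.6 in GFP- and 80.0 in GFP+, and a region 41.2 kb before it at 9.64 and 52.9. After the end of Ednrb, 30.9 kb from its start, an unshared GFP+ peak ranked at 43.1. The endothelin-converting enzyme and the ETB receptor had their widest GFP+ differences away from the first start.

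Regions in favour of GFP- were more frequent and wider. At Ece1, 18 of 35 regions were more than 20 points lower in GFP+, among them the intron peak at 80.0 kb whose summit is printed above, which ranked at 78.1 in GFP- and was absent from GFP+. Another intron region of Ece1, 5.47 kb after the start, ranked at 75.4 in GFP- and was absent from GFP+. At Ptgis, an intron region 5.02 kb after the start ranked at 88.7 in GFP- and 30.6 in GFP+. The peak 9.18 kb before the start of Ptgis, with an ETS word and an E-box, ranked at 74.4 in GFP- and was absent from GFP+. With its start, Ptgis thus had a run of sites around its first exon that ranked lower in or were absent from the endothelial list. The highest-ranked of all unshared peaks, at 82.3 in GFP-, was 32.9 kb before the start of Ace, with its summit in an exon of the neighbour Cyb561. Ptgs1 and Nos3 had weaker unshared GFP- peaks, in introns, that ranked at 20.5 and 22.8. At Edn1, 5 of 7 regions ranked lower in GFP+, close to the 67.7% of all loci, and a peak 8.52 kb after the start, which ranked at 43.9, was absent from GFP+.

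The receptors differed from each other. At Ptgir, 22 of 26 regions ranked lower in GFP+, against 67.7% over all loci, and 10 were more than 20 points lower, against 22.4%. The gene is short, and 5 other protein-coding genes start in its locus. In the gene or at its start lay 3 of the regions, all 3 more than 20 points lower. The others lay in the flanks, some in or at neighbours such as Pnmal2, and cannot be given to Ptgir. The peak 5.99 kb after its start, after the end of the gene, ranked at 77.5 in GFP- and was absent from GFP+. At Ednra, 1 of 8 regions was more than 20 points lower, an intron peak 12.6 kb after the start that ranked at 62.0 in GFP- and was absent from GFP+. At Agtr1a, the peak 82.4 kb after the start ranked at 63.4 in GFP- and was absent from GFP+, and 5 of 9 regions were more than 20 points lower. An intron peak of Agtr1a at 18.7 kb, which ranked at 29.3, was in the GFP+ list alone. At Ptgir the highest-ranked unshared GFP+ peak, at 28.8, lay 21 kb before the start in an exon of Dact3.

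Set side by side, the pooled regions of senders and receptors divided alike, although 1 gene held much of each pool. Of 123 sender regions, 13 (10.6%) were more than 20 points higher and 38 (30.9%) more than 20 points lower in GFP+. Of those 38, 18 were at Ece1. Of 51 receptor regions, 5 (9.80%) were more than 20 points higher and 17 (33.3%) more than 20 points lower. Of those 17, 10 were at Ptgir. The median difference was -6.10 points for the senders and -10.9 for the receptors. Of the GFP- peaks, 34 of 114 were unshared at the senders (29.8%, 22.2 to 38.8) and 19 of 46 at the receptors (41.3%, 28.3 to 55.7). Of the GFP+ peaks, 10 of 93 were unshared at the senders (10.8%, 5.95 to 18.7) and 5 of 35 at the receptors (14.3%, 6.26 to 29.4). Peaks of 1 locus are not independent, and the intervals of senders and receptors overlapped in both lists. Single genes of 1 role, such as Nos3 and Ptgis or Ednrb and Ptgir, also differed widely. These pairs were picked after their values were seen, so their contrast does not measure the difference between the roles.

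Short words known as binding sites were counted within 200 bp around the summits. The ETS word AGGAAGT, of the family to which the endothelial factor Erg belongs, was in 5 of 128 GFP+ peaks of the 10 loci (3.91%, 1.68 to 8.82), against 7.55% of all GFP+ peaks. The SOX word CCATTGT was in 8 of the 128 (6.25%, 3.20 to 11.8), against 2.82%, and 6 of those 8 overlapped a GFP- peak. In the GFP- list it was in 7 of 160 peaks of the 10 loci (4.38%, 2.14 to 8.75), against 2.19%. The AP-1 word TGANTCA was in 8 of the 53 unshared GFP- peaks (15.1%, 7.85 to 27.1), against 14.8% of all unshared GFP- peaks, and the E-box CAGCTG was in 35 of 160 GFP- peaks (21.9%, 16.2 to 28.9), against 22.0%. The GATA word AGATAA was in 15 of 128 GFP+ peaks (11.7%, 7.23 to 18.4), against 8.87%. The MEF2 word was in 7 of 128 GFP+ peaks (5.47%, 2.67 to 10.9), against 5.44%, and the SRF word in 2 of 128 (1.56%, 0.430 to 5.52), against 1.08%. Over all peaks of the 10 loci, with 7 words looked at in 2 lists, the SOX word in GFP+ was the 1 whose interval did not include the share of its list. In GFP- the interval of this word included the share only narrowly, so the excess was not particular to the endothelial list. A word is a match of letters and not a bound site.

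Of 48 other genes of the same pathways, 32 had a start peak in either list and 16 had none. More than 20 points in favour of GFP+ were found for 4 of the 32, against 1.94% of all genes with a start peak, and in favour of GFP- for 9, against 7.33%. The median was -3.74 points, against -0.814. With the first base of the gene record alone, 2 of the 4 were left, Tbxa2r and Nostrin, and Nos2 and Slco2a1 had no start peak. By the summit's -log10 p, Nostrin was within 20 points at 12.8, as were Ptger1 at -16.3 and Hpgd at -9.50. In the nitric oxide pathway, 2 of 13 genes with a start peak were more than 20 points higher and 3 more than 20 points lower. Those lower were the subunits of soluble guanylate cyclase, the nitric oxide receptor of smooth muscle: Gucy1a1 ranked at 72.0 in GFP- and had no GFP+ start peak, Gucy1a2 ranked at 89.4 and 52.1, and Gucy1b1 ranked at 80.2 and 44.3. Those higher were Nos2, the inducible synthase, which ranked at 10.4 in GFP- and 43.0 in GFP+, and Nostrin, a partner that moves Nos3 in the cell, at 32.2 and 54.4. Nos1, the neuronal synthase, was within 20 points, at 44.7 and 48.7.

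In the prostanoid pathway, 2 of 11 genes with a start peak were more than 20 points higher in GFP+ and 5 more than 20 points lower. Tbxa2r, the thromboxane receptor, ranked at 63.7 in GFP- and 88.6 in GFP+, and Slco2a1, a prostaglandin carrier, at 40.9 and 62.0. Lower in GFP+ were Pla2g4a, which frees arachidonic acid (58.0 in GFP- and no GFP+ start peak), and Ptges, prostaglandin E synthase (86.6 and 38.5). Ptgs2, cyclooxygenase-2, ranked at 41.8 in GFP- and had no GFP+ start peak. Hpgd, which breaks prostaglandins down, ranked at 30.9 in GFP- and had no GFP+ start peak, and Ptger1, a prostaglandin E receptor, ranked at 67.9 and 45.5. In the angiotensin and kinin pathway, 6 of 6 genes with a start peak ranked lower in GFP+, against 71.4% of all genes with a start peak. Their median difference was -2.27 points, against -0.814 for all. Of the 6, 1 was lower by more than 20 points: Bdkrb2, a bradykinin receptor, at 82.6 in GFP- and 36.5 in GFP+. In the endothelin pathway, 0 of 2 genes passed 20 points. Each pathway thus held genes over 20 points in both directions, apart from the endothelin and the angiotensin and kinin genes. Ptgir and Ptgis shared the direction of Ptges, Ptgs2 and Pla2g4a, and not that of Tbxa2r and Slco2a1. Nos3 shared that of Nos2 and Nostrin, and not that of Gucy1a1, Gucy1a2 and Gucy1b1.

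**Figure D5:**
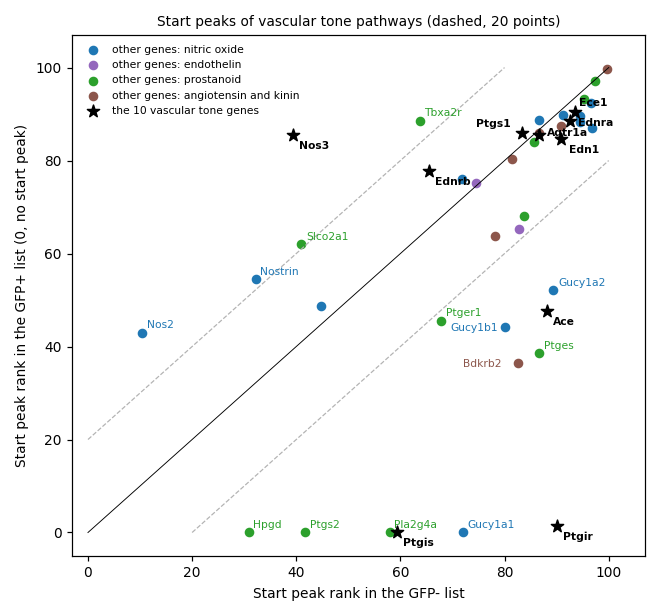
Rank of the highest start peak in the GFP- list (horizontal axis) and the GFP+ list (vertical axis, 0 where there is none) for the 10 vascular tone genes (stars) and the 32 other pathway genes with a start peak (dots, coloured by pathway), with dashed lines at a difference of 20 points. Nos3 and Nos2 lie farthest above the upper dashed line, and Ptgir lies in the lower right corner.

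The lower GFP+ starts of Ptgir, Ptgis, Ace and the guanylate cyclase subunits were in the same direction as most starts, since 71.4% of all genes with a start peak ranked lower in GFP+, with a median difference of -0.814 points over all genes. Of the markers with a start peak, 9 of 9 mural, 7 of 7 fibroblast, 5 of 7 cardiomyocyte and 1 of 1 macrophage markers ranked lower, with median differences of -16.2, -51.5, -4.19 and -15.0 points. More than 20 points lower were 4 mural, 5 fibroblast, 0 cardiomyocyte and 0 macrophage markers. The part of those cells in the values of the 10 genes was not tested.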

How the data were processed

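ATAC-Seq peak lists of 2 populations of sorted heart nuclei were used, each called from 2 replicate libraries. The authors used fastp for trimming, bowtie2 (version 2.3.5.1 per the submitters' processing notes) for mapping to mm10 and Picard against duplicates, brought libraries to a common depth by downsampling, and ran Genrich outside the ENCODE blacklist. The deposited area is a signal summed over a peak's length. The deposited -log10 p-value describes a peak's summit, and the deposited score, limited to 1000, was not used in any value. Area grows with peak length, so a broad or joined peak ranks higher than its parts.

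Ranks by area, overlaps, start peaks and words were computed with pysam 0.24.0, scipy 1.17.1, pandas 2.3.3 and numpy 2.4.6 under Python 3.11.15, using GENCODE vM21 and GRCm38.p6, and the scripts were tested on simulated data. Figures were drawn with matplotlib 3.10.9. Samples were grouped by their labels. Start peaks overlap any transcript start +/- 250 bp. The highest rank per gene was taken, an absent peak counted as 0, and differences over 20 points were counted. No test was possible. The text names all 10 genes, the other pathway genes over 20 points, and the highest-ranked unshared peak of each gene, printed as sequence where it ranked at 50 or more outside exons, plus the Nos3 intron peak, which ranked lower. The 10 genes and all lists were chosen with earlier results of these data known. The alternatives changed the start definition, the ranking measure, the flank, the overlap and the threshold. The stricter threshold left out the lowest-ranked 25% of each list but kept the ranks, so starts ranked above that could not change. With the first base of the gene record alone, Nos3 and Edn1 could not change, since each has 1 annotated start. The labels give 2.5 µL of Tn5 per 50000 nuclei and the study's methods another amount, on which no value here depends. A result at the Ptgis locus is not reported here.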

Additional observations from a re-analysis of the deposited data

How the results depend on the processing

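No paired analysis was possible because each population has a single list called from both replicates, and no replicate could be left out for the same reason. Of 134 values recomputed, 118 were counted as the same. A count was the same if it changed by no more than a fixed ratio, and a share if it stayed in its interval. A start difference was the same if it kept its side of 20 points, so a turn of sign within them did not count. The 118 thus hold changed values, such as starts over 20 points lower, 2 in place of 3 with starts within 1000 bp. They also hold settings that could not change a value. Ranked by area per bp, the starts over 20 points lower were 5 in place of 3, senders over 20 points higher were 0 in place of 1 (Nos3 at 8.34 points), receptors higher 1 in place of 0 (Ednrb at 34.9), and receptors lower 2 in place of 1 (Ednra at -20.4), and Ptgs1 turned to -23.4. With starts within 1000 bp, senders lower were 1 in place of 2 (Ptgis at -19.2). With the first base of the gene record alone, other pathway genes higher were 2 in place of 4. With 50% of both peaks required to overlap, the unshared share became 46.2% of GFP- and 32.8% of GFP+ peaks. At the senders it became 43.0% and 30.1%, and at the receptors 40% of GFP+ peaks. The shares over all protein-coding loci were not recomputed at 50%, so no excess over them can be read from these values. At 400 bp, the shares of peaks with a word were as large or larger, and their differences from the share of the whole list stayed within the intervals. The lists hold no read counts, so an absent peak is not shown to be closed chromatin.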

Other observations

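The 10 loci also held the starts of 17 other protein-coding genes, of which 14 had a start peak, in both lists. Of these, 0 were more than 20 points higher in GFP+ and 1 was more than 20 points lower, with a median difference of -0.225 points. The starts next to Nos3 ranked alike in the lists: Kcnh2, a potassium channel gene 13.2 kb upstream, ranked at 96.5 in GFP- and 95.8 in GFP+, and Abcb8, 28.9 kb downstream of the start, at 97.8 and 97.6. At Ptgir, Gng8, 14.7 kb upstream, ranked at 98.4 in GFP- and 81.3 in GFP+, and Pnmal2, 38.2 kb downstream of the start, at 73.6 and 16.9, whereas Calm3, a calmodulin gene 17.6 kb downstream, ranked at 99.0 and 98.8. At Ace, Cyb561, 14.6 kb upstream, ranked at 94.1 in GFP- and 97.1 in GFP+.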
